A study of Homo sapiens with 4 samples.

Results

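DDIT3 (CHOP), PPP1R15A (GADD34), PPP1R15B, TRIB3, CHAC1, ATF4, ATF5, DDIT4, CEBPB and CEBPG, 10 regulators of the integrated stress response, were followed in neuroblastoma cells treated with a SETD8 inhibitor. The 10 genes are members of a textbook pathway and were chosen from the values of the same contrast that is described here, treated against control. Their changes are therefore a description, given with standard errors (SE) and without p-values. They are 10 of the 57820 gene rows of the count tables, and all 10 were among the 16468 genes with enough fragments to be tested.

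Total RNA was sequenced from SY5Y, an established human neuroblastoma line with wild-type MYCN. One group of 2 libraries came from cells treated for 12 h with a compound labelled SGSS05-NS. The other group of 2 libraries came from cells given the solvent DMSO. The study describes SGSS05-NS3, a covalent inhibitor of the histone methyltransferase SETD8, and also names an SGSS05-NS in the same series. Whether the names stand for 1 compound is not given. The study reports that compounds of this series also inhibit other methyltransferases at low micromolar concentrations. The labels give a dose of 3 μM for the compound. The text of the study gives this dose for the line in places and a lower one in its methods. The libraries are independent replicates of 1 cell line with 1 compound, 1 dose and 1 time, so the contrast holds no second line and no second inhibitor.

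In the integrated stress response, kinases that sense misfolded proteins, amino acid shortage, double-stranded RNA or haem shortage phosphorylate the translation initiation factor eIF2. Most protein synthesis then slows, while a few messages such as those of ATF4, ATF5, DDIT3 and PPP1R15A are translated better. ATF4 works as a transcription factor in dimers with C/EBP proteins, and its targets include DDIT3, TRIB3, CHAC1 and DDIT4. GADD34 and its relative encoded by PPP1R15B bring protein phosphatase 1 (PP1) to eIF2 and so reverse the signal. Much of this control lies in translation and protein phosphorylation, which RNA counts do not measure.

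ATF4 and its partners bind C/EBP-ATF response elements, searched here as TGATGNAAN, with N standing for any base, on both strands. The reference sequence (GRCh37, the genome build of the count files) was searched from 1000 bases before to 500 bases after the start of each gene's canonical transcript. The windows of 6 of the 10 regulators held the element, DDIT3, CHAC1, DDIT4, PPP1R15B, CEBPG and TRIB3. It was found in 11.3% of the 12567 windows of tested protein-coding genes. The narrower form TGATGCAAN, chosen after the matches had been seen and contained in the first form, was in the same 6 windows and in 2.09% of all windows. A match is only a run of letters and shows no binding. The sites are printed because ATF4 dimers are known to bind this element. The 10 were not chosen by a search for it, but several of them are known targets of ATF4. Matches among them are therefore no independent evidence, and nothing is read from their number beside the share of all windows. No other element was searched in windows of this length. The sites are given 5′ to 3′ on the strand of the gene, with the element in capitals. It reads TTGCATCA where it lies on the opposite strand.
DDIT3: gttgccaaacATTGCATCAtccccgcccc
CHAC1: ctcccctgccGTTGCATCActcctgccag
DDIT4: tcctcggtccTGATGCAACcgtctggatc
PPP1R15B: ccgccccggcTGATGCAACctcacgctgc
CEBPG: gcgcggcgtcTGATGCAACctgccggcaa
TRIB3: ttagctccggTTTGCATCAcccggaccgg

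The DDIT3 site (chr12:57914586-57914614, minus strand) lay upstream of the canonical transcript, with the first base of the element at position -307 from the start. The CHAC1 site (chr15:41245449-41245477, plus strand) lay at -210, upstream of the canonical transcript and within an exon of another transcript. The DDIT4 site (chr10:74032726-74032754, plus strand) was the most distant, at -942. The PPP1R15B site (chr1:204381154-204381182, minus strand) lay at -227. Downstream of the start, the CEBPG site (chr19:33864967-33864995, plus strand) lay at position 362, in an intron of the canonical transcript. The same site lay at -42 from another annotated start of CEBPG, in RefSeq. TRIB3 carried its site 3 times with the same 29 bases, at positions 131, 164 and 197 in exon 1 of the canonical transcript (chr20:361525-361553, chr20:361558-361586 and chr20:361591-361619, plus strand). ATF4, ATF5, CEBPB and PPP1R15A had no match in their windows.

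In the RefSeq promoter table (GRCh38.p14, 300 bases around each start), 18 promoters of the 10 regulators were found. In these shorter stretches the C/EBP-ATF element TGATGNAAN was in 3.61% of all promoters. Among the regulators it was in 3 of the 18 promoters, those of CEBPG, CHAC1 and PPP1R15B. The cyclic AMP response element TGACGTCA, which ATF and CREB family dimers bind, was in 1.85% of the same 35116 promoters and among the regulators only in that of PPP1R15A. This match lay at -58 (chr19:49375610-49375637 on GRCh37, plus strand) and is printed because PPP1R15A, the gene with the second largest fold change of the 10, had no C/EBP-ATF match.
PPP1R15A: cctctcttcgTGACGTCAgcacgccggg

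The AP-1 element TGANTCA was in 7.71% of promoters. Among the regulators it was in 3 of the 18 promoters, of DDIT3 and ATF5, where overlapping promoters of DDIT3 hold the same site. GAANNTTC, the inverted pair of units in heat shock elements, was in 6.77% of promoters, and TGACGTGG, an unfolded protein response element, was in 0.729%. Neither was in a promoter of the 10 genes. None of these letters overlapped a C/EBP-ATF match in the regulators. The DDIT3 upstream region is shown in full, since DDIT3 had the largest fold change of the 10, from -330 to -31 (GRCh37, chr12:57914328-57914627, minus strand, 300 bases), with the C/EBP-ATF element at -307 and the AP-1 element at -241 in capitals.
DDIT3: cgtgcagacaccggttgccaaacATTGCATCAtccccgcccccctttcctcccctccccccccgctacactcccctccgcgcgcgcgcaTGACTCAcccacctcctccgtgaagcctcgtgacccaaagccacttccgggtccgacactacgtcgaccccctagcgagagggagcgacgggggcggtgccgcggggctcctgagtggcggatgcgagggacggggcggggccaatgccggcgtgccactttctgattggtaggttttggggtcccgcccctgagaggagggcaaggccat

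The libraries held 21463105 to 25350204 fragments assigned to genes on the sense strand. Fragments with no annotated exon on the counted strand, which include intronic and opposite-strand fragments, made up 12.3% to 12.4% of DMSO libraries and 15.3% to 16.1% of SGSS05-NS libraries. The defining markers of sympathetic neuroblastoma were abundant, except TH, tyrosine hydroxylase, which lay below 1 TPM (transcripts per 1000000, which takes exon length into account) in all libraries. Of the 10 marker genes tested, 7 were called lower after treatment and 0 higher at an adjusted p under 0.001. Over all genes tested, 8.14% were called lower and 6.37% higher. Among the 10 markers, 1 had a log2 fold change above 0. The summed level of the 11 listed markers went from 3710 and 4010 in DMSO to 2430 and 2150 TPM with SGSS05-NS. By edgeR's quasi-likelihood test the 7 markers called lower included CHGA (log2 fold change -1.37, adjusted p = 1.1e-06) and GAP43 (-0.76, adjusted p = 1.6e-04). Of 11 matched markers of immune, endothelial, fibroblast, epithelial and glial cells, 9 stayed below 1 TPM in every library, 2 of them (DCN and KRT5) at 0, and the summed level was 3.31 to 4.80. In the same edgeR fit 5 of these markers were tested and 0 were called (0 also by DESeq2 and limma, 1 by the likelihood ratio test). With an unadjusted p under 0.05 there were 2, COL1A2 (-2.24, adjusted p = 0.003) and EPCAM (0.97, adjusted p = 0.012), while COL1A1 had an adjusted p of 0.29. Whether the changing neuroblastoma markers bear on the regulators was not tested. In bulk RNA, fewer cells that express a gene and less RNA per cell cannot be told apart.

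All 10 regulators were higher with SGSS05-NS, and for each of them both treated libraries lay above both DMSO libraries, a pattern that 37.8% of all tested genes showed. At an adjusted p under 0.001 in edgeR's quasi-likelihood test, 9 of the 10 were called higher, ATF5 was not, and 0 were lower. Of all genes tested, 6.37% were called higher and 8.14% lower. The regulators were selected on this contrast, so nothing is read from the comparison with those shares. The median log2 fold change was 1.77 over the 10 regulators and 0.01 over all tested genes. The size of the change ran from 0.69 for ATF4 to 4.61 for DDIT3. DDIT3, PPP1R15A, CEBPB, CHAC1, DDIT4 and TRIB3 lay at 1.52 or above, and ATF4, ATF5, CEBPG and PPP1R15B all lay between 0.69 and 0.74.

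**Figure D1:**
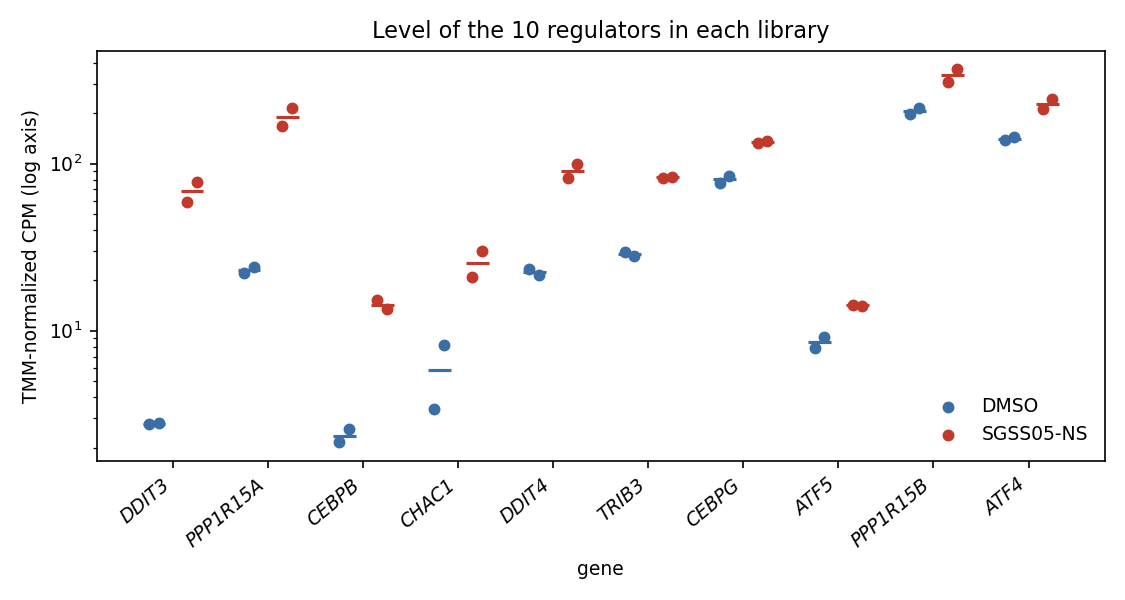
Level of the 10 regulators in each of the 4 libraries, in CPM (counts scaled to the library size) on a log axis, with DMSO in blue, SGSS05-NS in red, 1 point per library and a bar at each group's mean. Both SGSS05-NS points lie above both DMSO points for every gene, and the gap is widest for DDIT3 (2.75 and 2.82 against 58.6 and 77.7).

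Among the transcription factors, DDIT3 encodes CHOP, a C/EBP family protein known for driving cell death in prolonged stress. The gene lies on chr12:57910371-57915520. With DMSO, 69 and 66 fragments were counted, and with SGSS05-NS 1300 and 1827, or 2.75 and 2.82 against 58.6 and 77.7 CPM (counts per 1000000 fragments on genes, with TMM factors). The means were 2.79 ± 0.053 and 68.1 ± 13.5 CPM (SD, n = 2 each), 24.4 times higher with treatment. The log2 fold change was 4.61 (SE 0.17). The DMSO libraries were nearly equal and the treated libraries stood far apart from them, with the second treated library the higher one. DDIT3 went from the 38.7th to the 96.4th percentile of tested genes in level per length, from the lower part of the range to near its top.

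ATF4, the central activator of the response, lies on chr22:39915700-39918688 and was already abundant in control cells. It had 138 and 144 CPM in DMSO and 213 and 243 CPM with SGSS05-NS, a log2 fold change of 0.69 (SE 0.10) and a ratio of means of 1.62. The groups did not overlap, but the shift was small beside that of DDIT3. Processed copies of ATF4 are annotated, and fragments that map to several places were not counted, so ATF4 may be counted low. The copies ATF4P3 (39, 45, 33 and 45 fragments, DMSO libraries first) and ATF4P4 (5, 4, 3 and 3) had few fragments of their own, with no higher counts in treated libraries, and ATF4P1 had 0.

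ATF5, a factor related to ATF4 whose translation is also raised by eIF2 phosphorylation, lies on chr19:50431959-50437192 and had few fragments. It had 7.93 and 9.16 CPM in DMSO and 14.3 and 14.1 CPM with SGSS05-NS, a log2 fold change of 0.73 (SE 0.14). The treated libraries were higher than both DMSO libraries by a margin close to that of ATF4, yet ATF5 did not pass the threshold. It was called in 1 of the 4 fits that left out a library (without DMSO replicate 2, 0.62 to 0.82 over the 4) and in 3 of 9 other settings at the same threshold.

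CEBPB, a C/EBP factor of inflammation and differentiation, lies on chr20:48807367-48809205. It had 2.15 and 2.57 CPM in DMSO and 15.2 and 13.4 CPM with SGSS05-NS, a log2 fold change of 2.60 (SE 0.18). The counts behind these values were 54 and 60 against 337 and 314 fragments, so CEBPB was a scarce RNA in control cells and stayed below most of the other regulators after treatment. CEBPG, a partner of ATF4 in dimers, lies on chr19:33864591-33873592. It was abundant in both groups, with 77.0 and 84.0 CPM in DMSO and 132 and 137 CPM with SGSS05-NS (log2 fold change 0.74, SE 0.09). The TPM ratio of CEBPB to CEBPG was 0.0616 and 0.0674 with DMSO and 0.254 and 0.214 with treatment. CEBPG remained the more abundant of the pair in all 4 libraries.

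The 2 regulatory subunits of the eIF2 phosphatase differed in the size of their change. PPP1R15A encodes GADD34, the subunit induced by stress, and lies on chr19:49375469-49379316. It had 22.2 and 23.9 CPM in DMSO (556 and 558 fragments) and 167 and 214 CPM with SGSS05-NS (3714 and 5025 fragments), a log2 fold change of 3.05 (SE 0.13). PPP1R15B, on chr1:204365620-204381015, encodes the subunit that is present without stress. Its values were 198 and 216 CPM in DMSO and 307 and 366 CPM with SGSS05-NS, a log2 fold change of 0.70 (SE 0.11). For both genes the treated libraries were the higher ones and the second treated library was higher than the first.

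Per length, the order of the 2 subunits depended on the group. The TPM ratio of PPP1R15A to PPP1R15B was 0.304 and 0.301 with DMSO, where PPP1R15B was the more abundant RNA, and 1.48 and 1.59 with SGSS05-NS, where PPP1R15A was. This reversal rests on the length taken for PPP1R15B, since with the longest annotated transcript in place of all exons PPP1R15B stayed above PPP1R15A in both groups.

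**Figure D2:**
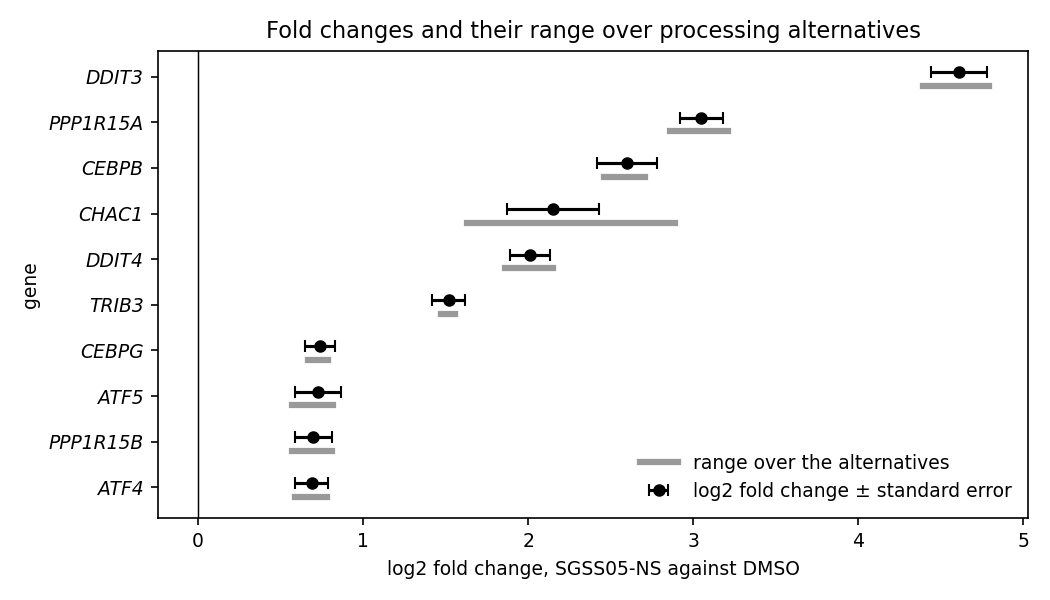
Log2 fold change of each regulator, SGSS05-NS against DMSO, with error bars of 1 SE from the edgeR fit over 2 libraries per group and, in grey, the range over the processing alternatives and left-out libraries. DDIT3 (4.61) and PPP1R15A (3.05) lead, ATF4, ATF5, CEBPG and PPP1R15B lie together between 0.69 and 0.74, and the grey range is widest for CHAC1 (1.63 to 2.89).

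Among the effectors, TRIB3 encodes a pseudokinase that binds AKT and ATF4 and dampens both, and lies on chr20:343479-378203. It had 29.5 and 27.9 CPM in DMSO and 81.5 and 83.6 CPM with SGSS05-NS, a log2 fold change of 1.52 (SE 0.10). The libraries of each group lay close together, with a log2 difference of 0.04 between the treated ones. Relative to ATF4, TRIB3 stood at 0.170 and 0.154 of its TPM in DMSO and at 0.304 and 0.274 with SGSS05-NS. The same ratio for DDIT3 moved much further, from 0.0399 and 0.0391 to 0.550 and 0.640, and that for ATF5 ran from 0.0521 and 0.0573 to 0.0607 and 0.0524, where the groups overlapped.

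CHAC1, an enzyme that breaks down glutathione, lies on chr15:41245160-41248710. It had 3.39 and 8.18 CPM in DMSO (85 and 191 fragments) and 21.1 and 29.8 CPM with SGSS05-NS (469 and 700 fragments), a log2 fold change of 2.15 (SE 0.28). The DMSO libraries differed by 1.25 on the log2 scale, more than the 0.50 that marks the 90th percentile over all tested genes. The size of the change therefore depended on single libraries, being 1.63 without DMSO replicate 1 and 2.89 without DMSO replicate 2. CHAC1 was called in all 4 fits that left out a library and in 8 of 9 other settings, DESeq2 being the exception.

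DDIT4 encodes REDD1, an inhibitor of the growth kinase complex mTORC1, and lies on chr10:74033678-74035794. It had 23.5 and 21.4 CPM in DMSO and 81.5 and 100 CPM with SGSS05-NS, a log2 fold change of 2.01 (SE 0.12). Its means of 22.4 ± 1.47 and 90.7 ± 13.1 CPM (SD, n = 2 each) differed by a factor of 4.04, with no overlap between the groups.

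The spread between replicates was of the usual size for DMSO and somewhat wider for treated cells. The absolute log2 difference between the DMSO libraries had a median of 0.12 over the regulators and 0.13 over all tested genes. Between the treated libraries the medians were 0.22 and 0.16. The second treated library was the higher one for 8 of the 10 regulators, by 0.49 for CHAC1, 0.41 for DDIT3, 0.35 for PPP1R15A and 0.29 for DDIT4. CEBPB (-0.18) and ATF5 (-0.02) were lower in it. Leaving out a library in turn moved the log2 fold changes of the regulators other than CHAC1 little. DDIT3 ran from 4.39 (without SGSS05-NS replicate 2) to 4.79, and PPP1R15A from 2.86 to 3.21.

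Levels were put in order by TPM. In DMSO the order was ATF4 (121 ± 4.44 TPM, SD, n = 2), PPP1R15B (49.6 ± 3.13), CEBPG (44.4 ± 2.85), DDIT4 (24.4 ± 1.51), TRIB3 (19.5 ± 0.696), PPP1R15A (15.0 ± 0.844), ATF5 (6.61 ± 0.693), CHAC1 (6.31 ± 3.71), DDIT3 (4.77 ± 0.107) and CEBPB (2.87 ± 0.367). The neighbours ATF5 and CHAC1, and CHAC1 and DDIT3, overlapped between libraries, and the others did not. With SGSS05-NS, ATF4 (191 ± 1.70 TPM) was still first, and PPP1R15A (121 ± 8.56) and DDIT3 (114 ± 11.1) followed with overlapping values. DDIT4 (96.3 ± 4.11), PPP1R15B (78.8 ± 1.67), CEBPG (72.9 ± 5.32), TRIB3 (55.1 ± 4.59), CHAC1 (27.0 ± 3.77), CEBPB (17.1 ± 3.29) and ATF5 (10.8 ± 1.21) came next. With the longest transcript as length, PPP1R15B was second in the treated order, ahead of DDIT3 and PPP1R15A, and with strand ignored DDIT4 was the seventh and DDIT3 the fifth. The summed level of the 10 regulators was 284 and 304 TPM with DMSO and 774 and 793 TPM with treatment.

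**Figure D3:**
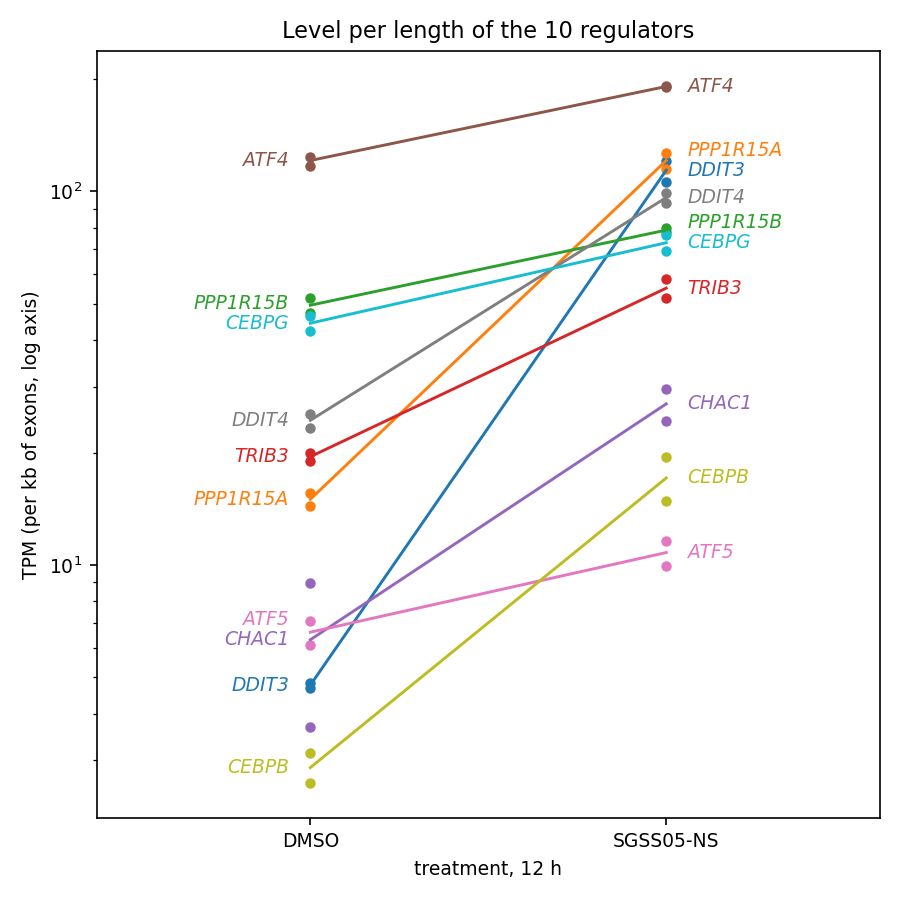
Level per length of the 10 regulators in TPM on a log axis, for DMSO and SGSS05-NS, with 1 point per library and lines that join the group means. ATF4 is the most abundant in both groups, and DDIT3 moves from 4.77 TPM, the ninth place, to 114 TPM.

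The opposite strand was read as a second measure that the choice of the 10 did not use. Over all genes, 4.64% to 5.05% of stranded fragments lay on it. For the regulators other than DDIT3 and ATF5 the share was 3.38% or less in every library. DDIT3 overlaps MARS1 and MBD6 on the opposite strand, and 160, 186, 134 and 104 fragments lay there (DMSO libraries first), so the opposite strand did not follow the sense strand upward. ATF5 overlaps IL4I1 and NUP62, with 164, 138, 139 and 143 opposite fragments. Counts made without regard to strand can hold fragments of either strand. For DDIT3 such counts were 71.0% and 74.2% of the sense counts in DMSO and 66.7% and 62.3% with SGSS05-NS. For DDIT4 they were 27.8%, 30.6%, 29.8% and 29.8%, DMSO libraries first. No gene annotated in the GENCODE release used here overlaps DDIT4. The study counted with an earlier release, and the cause of the loss at DDIT4 was not tested. Levels of DDIT4 counted without strand are therefore lower in both groups, while its log2 fold change was 2.01 there too.

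The rest of the pathway was described with 77 further genes, of which 70 were tested. With p-values from the quasi-likelihood test of edgeR, adjusted by Benjamini-Hochberg across every tested gene, 15 passed the threshold upward, 3 downward and 52 did not pass. Over all genes tested, 6.37% passed upward and 8.14% downward. The lists were drawn up with earlier results of these data known, so these counts and p-values are read as a description. The median log2 fold change of the 70 was 0.16.

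Upstream of ATF4, 1 of the kinases fell and the other kinases and the sensors did not pass the threshold. Of the 4 eIF2 kinases, EIF2AK4 (GCN2, which senses amino acid shortage) fell from 83.9 and 84.3 to 56.4 and 52.3 CPM (log2 fold change -0.63, SE 0.09, adjusted p = 2.2e-04). EIF2AK3 (PERK, of the endoplasmic reticulum) was at 0.29, EIF2AK2 (PKR, which binds double-stranded RNA) at 0.21 and EIF2AK1 (HRI, which senses haem) at -0.07, with adjusted p of 0.053, 0.11 and 0.62 in the same edgeR fit. Of the 4 sensors and regulators of these kinases, 0 passed by edgeR's quasi-likelihood test, DESeq2 or limma, and 1 had an unadjusted p under 0.05 in the first. DELE1 and OMA1, which relay mitochondrial stress, were at 0.09 and -0.38, and GCN1 and IMPACT, a helper and an inhibitor of GCN2, were at -0.14 and -0.26.

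Among the substrate and the phosphatase core 1 gene passed. Of 8 subunits of eIF2 and its exchange factor eIF2B, EIF2B3 fell from 31.4 and 30.2 to 17.6 and 19.1 CPM (log2 fold change -0.75, SE 0.11, adjusted p = 2.4e-04 by edgeR), and the other 7 did not pass. The next smallest adjusted p values in that fit were 0.0039 for EIF2B2 (0.46) and 0.046 for EIF2B5 (-0.24). The catalytic subunits of PP1 that GADD34 recruits were at -0.20 (PPP1CA), 0.01 (PPP1CB) and -0.08 (PPP1CC), with adjusted p of 0.12, 0.96 and 0.49 by edgeR, so 0 passed. None had an unadjusted p under 0.05, and 0 were called by DESeq2 or limma. These values describe RNA, and neither eIF2 phosphorylation nor PP1 activity was measured.

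Among other factors of the same families, ATF3, a stress-induced repressor and activator that dimerises with CHOP and ATF4, rose from 3.15 and 4.62 to 63.7 and 103 CPM (log2 fold change 4.43, SE 0.24, adjusted p = 1.3e-07 by edgeR). JDP2, a repressor related to it, rose from 1.71 and 2.01 to 5.50 and 5.44 CPM (1.55, SE 0.21, adjusted p = 1.2e-04 by edgeR). ATF2 did not pass (-0.12, adjusted p = 0.38 by edgeR), and CEBPA, CEBPD and CEBPE had too few fragments to be tested. CEBPB and CEBPG were thus the only C/EBP genes besides DDIT3 among those listed with enough fragments to be tested.

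The paralogs of the effectors were given beside them. TRIB1 was at 0.43 and TRIB2 at 0.45 where TRIB3 was at 1.52, and CHAC2 was at 0.41 where CHAC1 was at 2.15. Their adjusted p values were 0.019, 0.0039 and 0.06 in the edgeR fit, so 0 passed. All 3 had an unadjusted p under 0.05 there, a looser level whose share over all genes was not counted. By the likelihood ratio test 1 was called, and by DESeq2 or limma 0. The differences between paralogs were not tested. DDIT4L, the paralog of DDIT4, had too few fragments to be tested. Among 9 tested partners and effectors of TRIB3 and DDIT4, only RPTOR, the scaffold of mTORC1, passed in edgeR's quasi-likelihood fit (1 lower by limma also, and 3 lower by DESeq2 and by the likelihood ratio test), falling from 87.3 and 91.1 to 26.1 and 29.8 CPM (log2 fold change -1.67, SE 0.10, adjusted p = 3.2e-07 by edgeR). COP1, a ubiquitin ligase that works with TRIB proteins, was at -0.51 (adjusted p = 0.0011) and MTOR at -0.42 (adjusted p = 0.0031) in the same edgeR fit.

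Of 37 genes listed as targets of ATF4 or CHOP, 35 were tested. By edgeR's quasi-likelihood test 13 rose and 0 fell, beside 6.37% higher and 8.14% lower over all genes tested. The median of the 35 targets was 0.49. At an unadjusted p under 0.05 in that test, 23 were higher and 2 lower. The share of all genes at that looser level was not counted, so 23 and 2 are not to be set beside 6.37% and 8.14%. At an adjusted p under 0.05, which is stricter, 3728 of all 16468 tested genes were higher and 3903 lower. At the threshold of 0.001 the calls among the targets were 16 and 0 by DESeq2, 13 and 0 by limma and 15 and 1 by the likelihood ratio test. The 3 with the smallest p were GDF15, a stress-induced cytokine, SESN2, an inhibitor of mTORC1, and BBC3 (PUMA), a trigger of apoptosis. GDF15 went from 1.24 and 0.899 to 164 and 114 CPM (log2 fold change 7.01, SE 0.22, adjusted p = 2.2e-09 by edgeR). SESN2 went from 7.33 and 6.51 to 91.8 and 103 CPM (3.82, SE 0.12, adjusted p = 2.2e-09 by edgeR). BBC3 went from 10.8 and 8.39 to 60.1 and 61.1 CPM (2.66, SE 0.13, adjusted p = 5.8e-08 by edgeR). All 3 are also textbook targets of p53, and which factor lay behind their rise was not tested.

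The target list was split by function after its values had been seen, and the split is a description. Of 11 genes of amino acid and one-carbon synthesis, 2 rose (CTH and MTHFD2) and the median was 0.13. The classical target ASNS, asparagine synthetase, was at 0.55 (adjusted p = 0.0027 by edgeR) and PSPH of serine synthesis at -0.47 (adjusted p = 0.0018 by edgeR), and neither passed. Of 6 amino acid transporters, 3 rose, namely SLC7A11 (2.81), SLC3A2 (1.91) and SLC7A5 (1.17), and the median was 0.92. SLC3A2 is the shared heavy chain of the transporters that SLC7A11 and SLC7A5 form. Of 5 genes of tRNA charging and export, GARS1 (0.64) rose, and the median was 0.15. The 4 genes put into a group shared with p53, GDF15, SESN2, BBC3 and TNFRSF10B (1.62), all rose, with a median of 3.24. The regulators and the other lists were not sorted in this way. In the remaining group of 9 tested genes, STC2 (1.89), VEGFA (0.74) and KLHL24 (0.53) rose, and the median was 0.53.

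**Figure D4:**
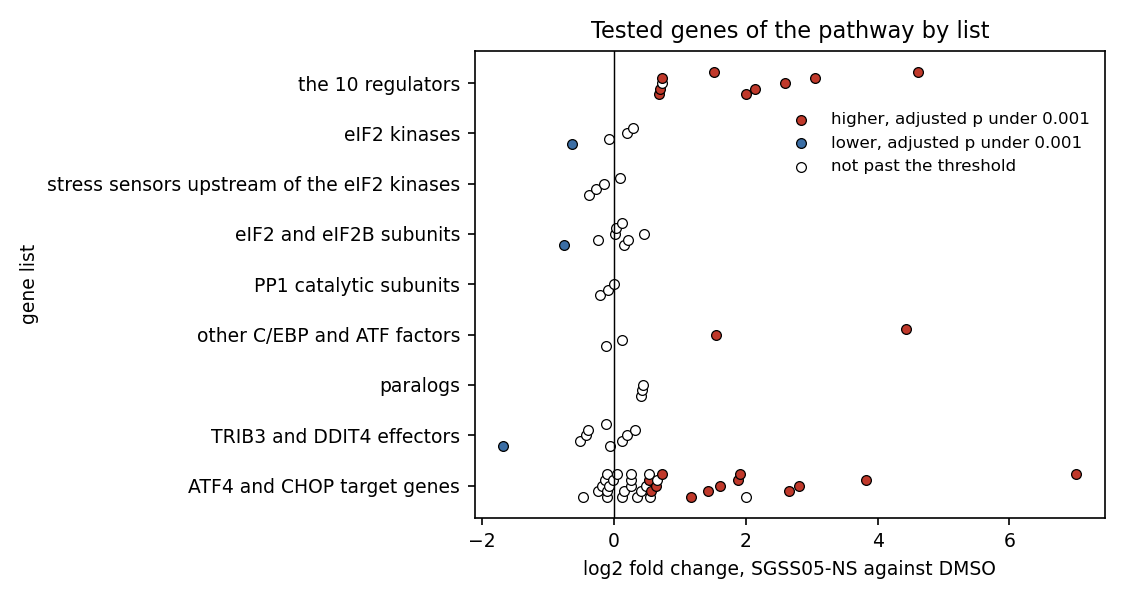
Log2 fold change, SGSS05-NS against DMSO, of each tested gene of the pathway, grouped by list and with 1 point per gene, filled where the adjusted p was under 0.001 and open otherwise. The kinases, sensors, eIF2 and PP1 subunits lie between -0.75 (EIF2B3) and 0.46 (EIF2B2). The ATF4 and CHOP targets run from -0.47 to 7.01, with 22 of the 35 open. The 10 regulators run from 0.69 to 4.61, and since they were chosen on this contrast, nothing is read from their place.

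The genes most like DDIT3, PPP1R15A and TRIB3 were sought by the Euclidean distance over the 4 libraries between log2 CPM values set to the DMSO mean, among 11402 genes. For DDIT3 they were ATF3 (distance 0.481), EGR1 (0.500) and FAS (0.574), with log2 fold changes of 4.43, 4.38 and 4.74. For PPP1R15A they were BAG3 (0.0436), SIX4 (0.152) and NEAT1 (0.289), at 3.06, 3.23 and 3.02. BAG3, a co-chaperone of HSP70, had 7.45 and 7.79 CPM in DMSO and 56.7 and 70.3 CPM with SGSS05-NS, nearly the profile of PPP1R15A at a lower level. For TRIB3 they were IRF7 (0.0844), AHSA2P (0.104) and TUBA4A (0.138), at 1.53, 1.54 and 1.47. With 4 libraries in 2 groups, likeness mostly means a fold change of similar size.

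**Figure D5:**
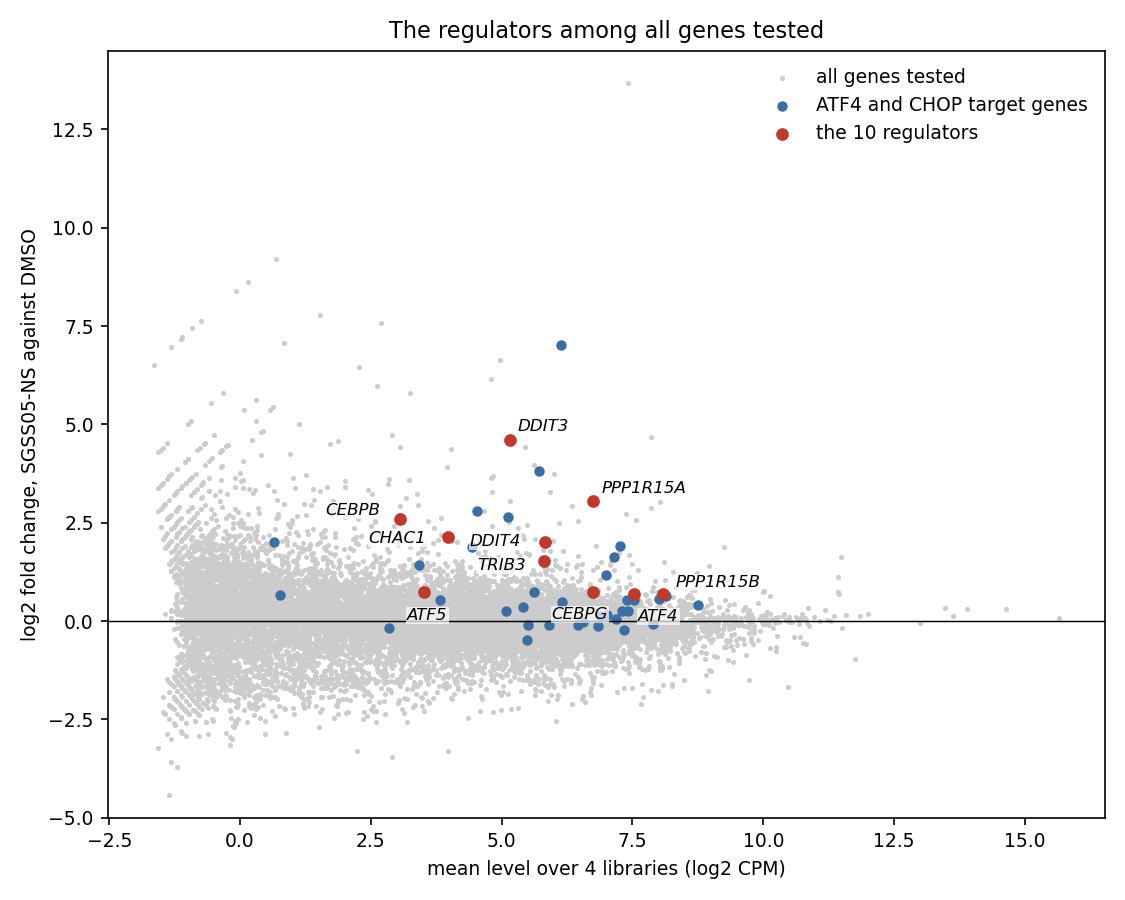
Log2 fold change against mean level in log2 CPM for all 16468 tested genes (grey), the ATF4 and CHOP target genes (blue) and the 10 regulators (red, named). All 10 lie above 0, from 0.69 to 4.61, across a wide range of levels, and single genes in grey and blue lie higher still.

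The fold changes are set beside the sequence matches as a description. The 6 regulators with a C/EBP-ATF element in the window had log2 fold changes from 0.70 (PPP1R15B) to 4.61 (DDIT3), and the 4 without had 0.69 (ATF4) to 3.05 (PPP1R15A). The ranges overlapped. With 6 and 4 genes that were chosen on this contrast, they cannot show whether a match goes with the size of the change, and this was not tested.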

How the data were processed

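Total RNA of SY5Y cells was sequenced as strand-specific paired-end libraries (a TruSeq RNA kit in the labels, a stranded kit that depletes ribosomal RNA in the methods). Per the labels and methods, the authors used Trimmomatic 0.30 for trimming, STAR 2.4.2a for alignment and counting on hg19, and edgeR 3.10.5. The deposited values are raw counts of fragments per gene, without normalization or pooling, in 3 columns (unstranded, forward and reverse). The reverse column was used. The 4 summary rows per library entered neither library sizes nor tests. They included fragments with no annotated exon on the counted strand (12.3% to 16.1% of all fragments) and fragments mapping to several places, which are counted for no gene.

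Gene identifiers were matched to GENCODE 44 on GRCh37, with 55538 of 57820 matched, and TXNIP and PECAM1 among the listed genes were not matched. Exon lengths and overlapping genes also came from this release, whereas the study counted with an earlier one. Genes were filtered with filterByExpr, scaled by TMM and tested with edgeR 4.0.16 (R 4.3.3, glmQLFit and glmQLFTest, 2 libraries against 2, all 4 in the fit), adjusted by Benjamini-Hochberg across all 16468 tested genes. The threshold of 0.001 was that of the study. The study used the likelihood ratio test, which was an alternative here, beside DESeq2 1.42.0, limma 3.58.1, other scalings and filters, a replicate block, unstranded counts and each library left out. SE is the log2 fold change divided by the square root of F. TPM used the union of exons. The scripts were tested on simulated data.

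The 10 regulators and the gene lists were chosen with earlier results of these data known. Named genes were the 10 regulators, the 3 tested genes with the smallest p in each other list, every gene of lists of 4 or fewer and the 3 genes most like DDIT3, PPP1R15A and TRIB3. The values of 1 marker gene that this rule names are not reported here. CEBPA, CEBPD, CEBPE, the processed ATF4 copies, DCN, KRT5, TH and the further ATF4 or CHOP targets in the split by function were named after their values had been seen. The wider search windows and the narrower element were added after the data were seen.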

Additional observations from a re-analysis of the deposited data

Results flagged for a closer look

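Fragments on the opposite strand were no part of the main counts, and for 4 of the 10 regulators they met a rule for a closer look. Relative to library size, each had at least 2 times the DMSO rate and 3 or more fragments in both treated libraries. How many of all genes meet this rule was not counted, so nothing is read from the 4. The rates of PPP1R15B, TRIB3, ATF4 and DDIT4 were also higher in both treated libraries but did not meet it. Most of these counts are small. PPP1R15A had 0 and 2 opposite fragments in DMSO and 8 and 16 with SGSS05-NS. CHAC1 had 2 and 2 in DMSO and 7 and 10 with SGSS05-NS. CEBPB, which has an annotated antisense gene, had 0 and 2 in DMSO and 7 and 11 with SGSS05-NS. CEBPG had 0 and 1 in DMSO and 7 and 15 with SGSS05-NS. The sense fragments of the same genes were also higher. As a share of the stranded fragments of the gene, the opposite strand overlapped between groups for PPP1R15A (0% and 0.357% in DMSO, 0.215% and 0.317% with SGSS05-NS), CHAC1 (2.30% and 1.04%, then 1.47% and 1.41%) and CEBPB (0% and 3.23%, then 2.03% and 3.38%). For CEBPG it was 0% and 0.0509% in DMSO and 0.239% and 0.462% with SGSS05-NS. All these shares were below that over all genes, and no cause was tested.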

How the results depend on the processing

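The count of regulators called higher was 8 to 10 under all alternatives (9 as reported), and 0 of their 130 recomputed fold changes changed sign. Of 338 recomputed fold changes of 26 named pathway genes, 6 changed sign, 17 newly passed and 0 ceased to pass. Genes called higher numbered 1049 as reported, 2022 with the likelihood ratio test, 2034 with no filter and 3728 at an adjusted p under 0.05. Genes called lower numbered 1341, then 2267, 2570 and 3903. Pathway genes called higher went from 15 to 28 at 0.05. Those called lower went from 3 to 6 (likelihood ratio test), 5 (DESeq2), 7 (no filter) and 8 (0.05). The sign changes were all of small values that did not pass. PPP1CB (0.01) was at -0.02 with no filter, -0.03 without strand and -0.09 to 0.09 with a library left out. ATF2 (-0.12) ran from -0.25 to 0.0 (without DMSO replicate 1), and EIF2AK1 (-0.07) from -0.18 to 0.03 (without DMSO replicate 2), when a library was left out. A condition left with 1 library was assumed to vary like the other. The cause was not tested.

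With the replicate number as a block, 1759 genes were called higher and 2007 lower, 5 pathway genes were called lower and all 10 regulators higher. The deviations of same-numbered libraries correlated at 0.053 over all tested genes. With 2 libraries per group, this check cannot show whether same-numbered libraries were paired. Depth limits ATF5, CEBPB, DDIT3 and CHAC1 in DMSO, which rest on 54 to 214 fragments per library, and 2 libraries per group limit every SE.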

Other observations

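CHAC1 and SLC7A11, both linked to glutathione, differed most between the DMSO libraries among the 10 regulators and the tested ATF4 and CHOP target genes. SLC7A11, a cystine transporter, had 3.79 and 7.83 CPM in DMSO, and CHAC1 had 3.39 and 8.18 CPM. Both were higher in the second DMSO library. In the treated libraries they parted, with 47.4 and 33.8 CPM for SLC7A11 and 21.1 and 29.8 CPM for CHAC1. The pair was noticed in the data and not tested.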
